A study of Mus musculus with 6 samples.

Results

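The 3 C1q chain genes *C1qa*, *C1qb* and *C1qc*, the dead-cell receptor genes *Axl*, *Mertk* and *Timd4*, the bridging protein gene *Mfge8* and the growth factor receptor gene *Csf1r* were followed in RNA-seq of splenic T follicular helper (Tfh) cells. These 8 genes were picked by name from the 53379 genes counted in each mouse, by matching gene identifiers to symbols in the mouse GENCODE annotation. They were chosen with earlier results of these mice known, so their differences between the groups are given as a description, with no test on the list. Tfh cells, the CD4+ T cells that help B cells in germinal centers, came from 3 *Prdm1*-CKO and 3 CTL female mice on day 7 after NP-CGG in CFA, at an age of 6 to 8 weeks. The sort took living cells positive for TCRβ, CD4, CXCR5 and PD1 from the spleen, and each mouse gave 1 Smart-seq2 library. *Prdm1*-CKO mice were *Prdm1* fl/fl; CD11c-CRE+, and their labels call them Blimp1 KO in the titles and Blimp1 KD in the genotype field. CTL mice were either *Prdm1* fl/fl; CD11c-CRE- or *Prdm1*+/+; CD11c-CRE+, and the labels do not say which of these each CTL mouse was. The CD11c promoter drives Cre chiefly in dendritic cells, so the Tfh cells themselves were not the cells targeted. *Prdm1* was at 28.9, 30.0 and 27.5 CPM (counts per 1e+06, scaled by TMM) in the CTL mice and 30.2, 30.8 and 30.9 CPM in the *Prdm1*-CKO mice, which is no check of the deletion in dendritic cells.

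C1q is the recognition molecule of the classical complement pathway, assembled from A, B and C chains, and it binds antibody on antigen as well as dying cells. Unlike most complement proteins, which the liver secretes, it is made mainly by macrophages and related myeloid cells. AXL and MERTK are receptor tyrosine kinases that hold dead cells through the bridging proteins GAS6 and protein S, TIM-4 (*Timd4*) binds phosphatidylserine on dead cells directly, and MFG-E8 (*Mfge8*) links phosphatidylserine to integrins. CSF1R is the receptor on which most macrophages depend for survival. In the spleen, macrophages of the germinal center and the red pulp clear dead B cells and red cells with this machinery.

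The chain genes lie side by side on the minus strand of chromosome 4 of GRCm38. *C1qb* spans chr4:136880129-136886187, *C1qc* chr4:136889804-136893065 and *C1qa* chr4:136895917-136898803, with gaps of 3616 and 2851 bp and no other annotated gene in the 18675 bp they cover. *Axl* lies at chr7:25757273-25788705 and *Mfge8* at chr7:79133768-79149060, both on the minus strand. *Mertk* lies at chr2:128698956-128802894 and *Timd4* at chr11:46810800-46844332, both on the plus strand. The exons of these 7 genes overlap no other annotated gene. *Csf1r* shares 873 bp of exon with *Hmgxb3* on the opposite strand, and whether the counting used strand was not given in the sources used here, so its counts are uncertain to that extent.

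The bases upstream of *C1qb* and *C1qc* are shown because these neighbouring genes, whose proteins form 1 molecule, parted in CTL replicate 1, as described below. Promoter windows of RefSeq on GRCm38.p6 held 6 of the 8 genes, with no entry matched for *C1qa* and *Csf1r*. Capitals mark the only matches, on either strand, to the core letters of a PU.1 site (GAGGAA, or TTCCTC on the other strand). PU.1 is a transcription factor of macrophages and other myeloid cells. The *C1qb* window covers chr4:136886201-136886450 and the *C1qc* stretch chr4:136893066-136893164, which stops before the GENCODE start of the gene, and both are written 5′ to 3′ on the minus strand.
C1qb: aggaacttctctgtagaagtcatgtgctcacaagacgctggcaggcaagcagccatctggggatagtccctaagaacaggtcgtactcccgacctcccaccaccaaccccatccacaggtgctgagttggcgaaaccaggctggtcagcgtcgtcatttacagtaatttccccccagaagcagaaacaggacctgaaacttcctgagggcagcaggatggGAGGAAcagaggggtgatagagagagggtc
C1qc: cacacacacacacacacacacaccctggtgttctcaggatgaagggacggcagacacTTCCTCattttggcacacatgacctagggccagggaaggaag
In *C1qb* the PU.1 letters lie 30 bases before the RefSeq start, and in *C1qc* the PU.1 letters lie 193 bases before it. The letters GAGGAA also occurred in the windows of *Axl* and *Mfge8* and not in those of *Timd4* and *Mertk*. Over 32851 promoters, 23.3% held GAGGAA in the 250 bases before the start. The E-box CACGTG was found in none of the 6 windows, against 6.02% of all promoters.

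Total counts ran from 7147601 to 16973392 per mouse, and 14555 genes, all 8 members included, passed the expression filter. The floor of a library, taken as 3 counts, lay between 0.177 and 0.420 CPM and covers counting error only. CTL replicate 2 stood apart from the other mice. The first principal component held 56.4% of the variance and separated it, and in this mouse 148 of the 9301 genes with a mean of at least 10 CPM, or 1.59%, were over 3-fold lower than in the lowest other mouse, *C1qa* among them. CTL replicate 1 had 16 such genes, CTL replicate 3 had 8, and the *Prdm1*-CKO mice had 1, 0 and 0. CTL replicate 2 also had the highest share of mitochondrial counts, 5.83% against 2.11% to 4.41%, and the fewest genes with a count, 16650 against 18480 to 21501, and their part in its low member values was not tested. In the sorted cells *Cd3e* ran from 542 to 786 CPM, *Cd4* from 774 to 1061 CPM, *Cxcr5* from 254 to 477 CPM and *Pdcd1* from 188 to 385 CPM, so the defining Tfh transcripts were present in every mouse.

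All 8 genes were detected, at very unequal levels. Per kb of exon, the mean level over the 6 mice was 105 CPM for *Csf1r*, 49.9 CPM for *C1qb*, 32.5 CPM for *C1qa*, 19.3 CPM for *Axl* and 14.1 CPM for *C1qc*. It was 4.06 CPM for *Mfge8*, 3.03 CPM for *Mertk* and 0.622 CPM for *Timd4*. On this scale the mean of *Csf1r* was near that of *Cxcr5*, the chemokine receptor of the gate, at 100 CPM per kb. It was below that of *Cd4* at 225 CPM per kb. By mouse, *Csf1r* was below *Cxcr5* in CTL replicate 2 (55.3 against 76.3) and CTL replicate 3 (66.9 against 143), and above it in the others. *Csf1r* exceeded *C1qb* and *C1qb* exceeded *C1qa* in 6 of 6 mice, and *Mertk* exceeded *Timd4* in 6 of 6. Neighbours further down this order did not separate in every mouse, with *C1qa* above *Axl* in 5, *Axl* above *C1qc* in 3, *C1qc* above *Mfge8* in 4 and *Mfge8* above *Mertk* in 5 of the 6 mice.

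Macrophage transcripts accompanied them. Of 14 macrophage marker genes, 12 passed the filter, and the summed level of all 14, given for replicates 1, 2 and 3 in turn as in all that follows, was 4326, 2019 and 3188 CPM for CTL mice and 4155, 3552 and 4172 CPM for *Prdm1*-CKO mice. *Adgre1*, which encodes F4/80, was at 89.1, 2.84 and 52.4 CPM in CTL and 80.7, 66.6 and 110 CPM in *Prdm1*-CKO mice. *Lyz2*, the lysozyme of myeloid cells at large and not of macrophages alone, made up most of these sums, at 3476, 1763 and 2730 CPM in CTL and 3458, 2933 and 3362 CPM in *Prdm1*-CKO mice. Among genes of resident macrophages, *Vsig4* had at most 6 counts and *Marco* at most 51 counts in a mouse. *Siglec1* had 0 counts in CTL replicate 2 and 22 to 85 counts in the other mice. Other markers of the list were detected in every mouse. *Vcam1* ran from 52.1 to 145 CPM, *Slc40a1* from 28.9 to 165 CPM and *Hmox1* from 41.3 to 150 CPM. *Spic* ran from 15.8 to 52.5 CPM and *Cd163* from 8.74 to 15.8 CPM. In bulk libraries fewer macrophages among the sorted cells and less RNA per macrophage cannot be told apart, and whether these cells carried the C1q counts was not tested.

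*C1qa*, the A chain gene, was at 55.2, 2.84 and 22.5 CPM in the CTL mice and at 39.0, 39.6 and 43.8 CPM in the *Prdm1*-CKO mice. The CTL mice held both the highest and the lowest value, 806 and 24 counts, while the *Prdm1*-CKO mice lay close together, with means of 26.8 ± 26.5 CPM (SD, n = 3) for CTL and 40.8 ± 2.63 CPM (SD, n = 3) for *Prdm1*-CKO mice. The log2 fold change of *Prdm1*-CKO over CTL was 0.59 (standard error 0.75). It was 0.06 without CTL replicate 2 and 1.67 without CTL replicate 1, so its size rested on single mice.

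*C1qb*, the B chain gene, was at 73.0, 23.9 and 42.8 CPM in CTL and 64.3, 56.2 and 65.3 CPM in *Prdm1*-CKO mice. The order of the mice was close to that of *C1qa*, with CTL replicate 1 highest and CTL replicate 2 lowest, and the groups overlapped. Its log2 fold change was 0.41 (standard error 0.36), 0.09 without CTL replicate 2 and 0.88 without CTL replicate 1.

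*C1qc*, the C chain gene, was at 8.84, 5.45 and 29.0 CPM in CTL and 29.9, 36.8 and 53.6 CPM in *Prdm1*-CKO mice. It was the only member whose groups did not overlap, by the narrow gap between 29.0 CPM in CTL replicate 3 and 29.9 CPM in *Prdm1*-CKO replicate 1. Over all genes tested, 4.56% had every *Prdm1*-CKO mouse above every CTL mouse. The means were 40.1 ± 12.2 CPM (SD, n = 3) and 14.4 ± 12.7 CPM (SD, n = 3), and the log2 fold change was 1.49 (standard error 0.57), the largest of the members. Left out in turn, CTL replicates 1 to 3 gave 1.20, 1.09 and 2.48, and the value stayed above 0 with any mouse left out.

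**Figure D1:**
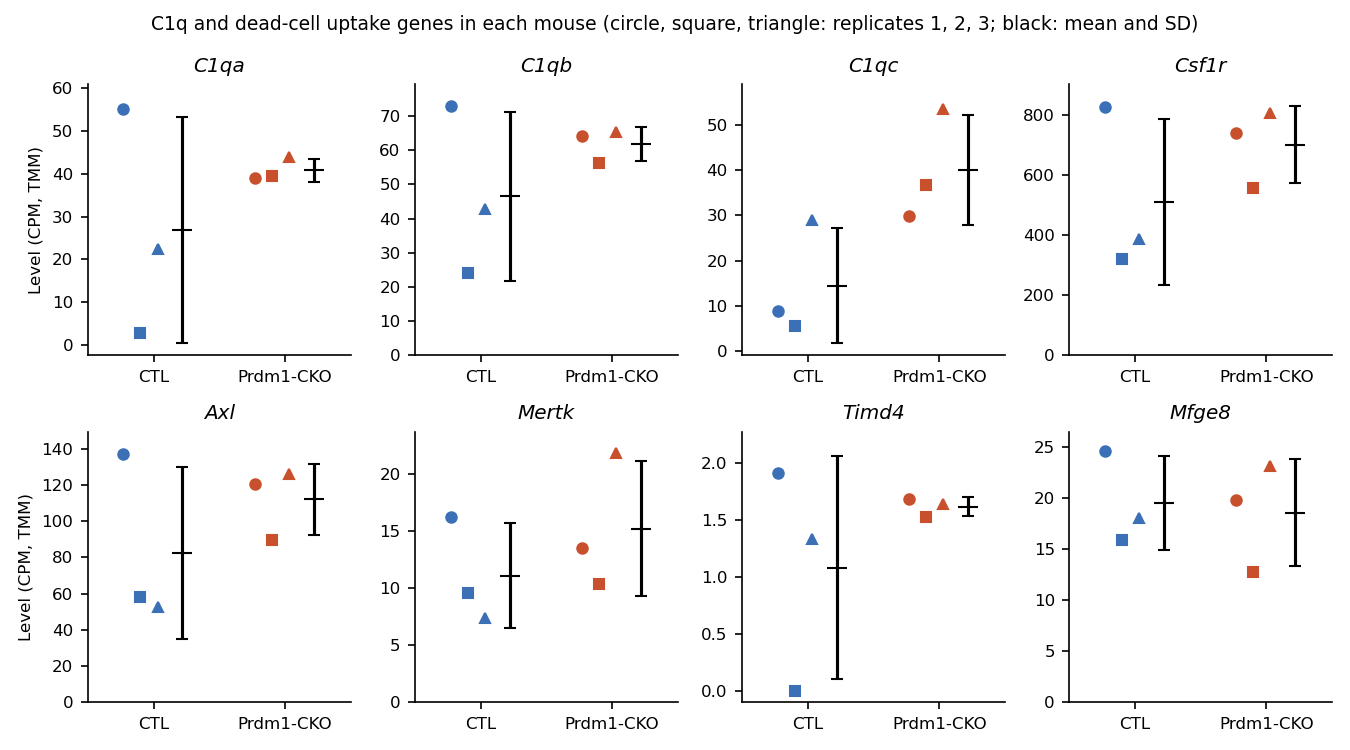
Level of each gene (vertical axes, CPM after TMM scaling, a separate scale for each gene) in the CTL and *Prdm1*-CKO mice, with the mean and SD of 3 mice in black. The groups overlap in every gene except *C1qc*, where 29.0 CPM in CTL replicate 3 lies just under 29.9 CPM in *Prdm1*-CKO replicate 1.

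The chains did not keep 1 ratio from mouse to mouse. Among the counts of *C1qb* and *C1qc* together, *C1qc* made up 10.8% in CTL replicate 1 (95% exact binomial interval 9.10% to 12.7%), 18.5% in CTL replicate 2 (13.9% to 24.0%) and 40.4% in CTL replicate 3 (36.0% to 44.9%). In *Prdm1*-CKO replicates 1 to 3 it made up 31.8% (29.5% to 34.1%), 39.6% (36.4% to 42.8%) and 45.1% (42.7% to 47.4%). CTL replicate 1 thus had the most *C1qb* and the smallest part of *C1qc*, outside the counting interval of every other mouse, and CTL replicate 3 lay within the range of the *Prdm1*-CKO mice.

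*C1qa* among the counts of *C1qa* and *C1qb* was steadier, between 34.5% and 43.1% in 5 mice, with CTL replicate 2 alone at 10.6% (6.92% to 15.4%). These intervals cover counting error only, and amplified reads are not independent molecules. Per kb of exon, with the 3 chain genes set to 100%, *C1qc* took 3.67%, 10.2% and 19.8% in the CTL mice and 13.8%, 17.5% and 21.4% in the *Prdm1*-CKO mice. The C1q protein holds the chains in equal number, while *C1qc* was the lowest of the 3 per kb of exon in every mouse except CTL replicate 2, where *C1qa* was at 2.73 and *C1qc* at 2.82 CPM per kb.

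**Figure D2:**
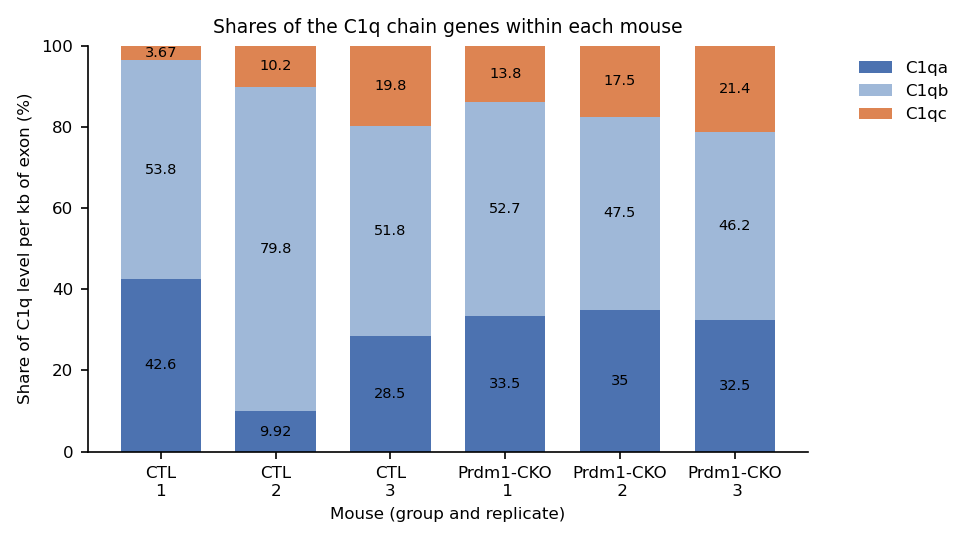
Share of *C1qa*, *C1qb* and *C1qc* (vertical axis, percent of their summed CPM per kb of exon) in each mouse. *C1qc* runs from 3.67% in CTL replicate 1 to 21.4% in *Prdm1*-CKO replicate 3, and *C1qa* falls to 9.92% in CTL replicate 2.

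Among the 3 dead-cell receptors of the members *Axl* had the most counts, at 137, 57.9 and 52.5 CPM in CTL and 121, 89.8 and 126 CPM in *Prdm1*-CKO mice. CTL replicate 1 lay above all *Prdm1*-CKO mice and the other 2 CTL mice below them. Its log2 fold change was 0.44 (standard error 0.36), from 0.20 without CTL replicate 3 to 1.01 without CTL replicate 1.

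*Mertk*, the kinase with which macrophages engulf dead cells, was at 16.2, 9.59 and 7.40 CPM in CTL and 13.5, 10.4 and 21.8 CPM in *Prdm1*-CKO mice, with a log2 fold change of 0.45 (standard error 0.41). The groups overlapped, and the value was 0.10 without *Prdm1*-CKO replicate 3, the highest mouse, and 0.83 without CTL replicate 1. *Tyro3*, the remaining receptor of the family, was at 7.40, 0 and 5.33 CPM in CTL and 11.9, 8.34 and 6.57 CPM in *Prdm1*-CKO mice, with a log2 fold change of 1.06 (standard error 1.04) that was 0.47 without CTL replicate 2.

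*Timd4* had the fewest counts of the members, 28, 0 and 9 in the CTL mice and 30, 15 and 24 in the *Prdm1*-CKO mice. In 5 mice it stood between 1.33 and 1.92 CPM, and it was not detected in CTL replicate 2, whose floor of 3 counts is 0.348 CPM. Its log2 fold change of 0.55 (standard error 1.03) turned to -0.03 without that mouse, so no difference was detectable at this depth.

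*Mfge8* was at 24.7, 15.9 and 18.1 CPM in CTL and 19.8, 12.8 and 23.1 CPM in *Prdm1*-CKO mice. It was the only member with a log2 fold change below 0, at -0.07 (standard error 0.31), and it turned to 0.12 without CTL replicate 1 and to 0.14 without *Prdm1*-CKO replicate 2.

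*Csf1r*, the highest member, was at 827, 319 and 386 CPM in CTL and 739, 559 and 807 CPM in *Prdm1*-CKO mice. CTL replicate 1 again lay above all *Prdm1*-CKO mice and CTL replicates 2 and 3 below them, as in *Axl*. The means were 702 ± 128 CPM (SD, n = 3) and 511 ± 276 CPM (SD, n = 3), with a log2 fold change of 0.46 (standard error 0.34) that was 0.21 without CTL replicate 2 and 0.98 without CTL replicate 1.

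In edgeR's quasi-likelihood test over all genes, 0 of the 8 members and 0% of the 14555 genes reached an adjusted p under 0.05. The adjusted p was 0.996 from edgeR for each member, and DESeq2 also called 0 of them. At an unadjusted p under 0.05, *C1qc* was the only member called higher, against 0.928% of all genes, and 0 members were called lower, against 1.42%. Of the 8 log2 fold changes 7 lay above 0, where 51.1% of all genes did, and their median was 0.45 against 0.01 over all genes. The median was 0.15 without CTL replicate 2 and 0.99 without CTL replicate 1, so the distance of the members from the other genes depended on those mice. The members share the sorted cells and move together, and are not replicates of each other.

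Most members were high in the same mice and low in the same mice. CTL replicate 1 was the highest mouse in 6 of the 8 genes, all but *C1qc* and *Mertk*, and CTL replicate 2 the lowest in 5, which were the 3 chain genes, *Timd4* and *Csf1r*. Over the 28 pairs of members, the median Pearson's r of log2 CPM across the 6 mice was 0.64, and 5 pairs had r over 0.9. *C1qa* and *C1qb* had r = 0.979 (exact permutation p = 0.00417, adjusted p = 0.0233 over the 28 pairs) and Spearman's rho = 0.943 (exact permutation p = 0.0167, adjusted p = 0.0583).

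*C1qb* and *Csf1r* put the mice in the same order, with r = 0.940 (exact permutation p = 0.00139, adjusted p = 0.0194) and rho = 1.00 (exact permutation p = 0.00278, adjusted p = 0.0583). *Axl* and *Csf1r* had r = 0.974 (exact permutation p = 0.00972, adjusted p = 0.0389) and rho = 0.943 (exact permutation p = 0.0167, adjusted p = 0.0583). Without CTL replicates 2 and 3, the mice farthest from the median, r was 0.836 for *C1qa* and *C1qb*, 0.923 for *C1qb* and *Csf1r* and 0.990 for *Axl* and *Csf1r*. In all, 7 pairs passed an adjusted p of r under 0.05 by exact permutation and 0 passed for rho. The points share a library, a scaling and a sort, each group holds too few mice for a value within it, and the pairs overlap in their genes, so these p are given beside the description only. With each group centred on its own mean, r was 0.973, 0.918 and 0.964 in the 3 named pairs.

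*C1qc* did not follow its neighbours. The 21 pairs without *C1qc* had a median r of 0.73, and the 7 pairs with it had a median r of 0.41, from -0.02 to 0.69. Without CTL replicate 2 these medians were 0.92 and -0.35. *C1qa* and *C1qc* had r = 0.636 (exact permutation p = 0.174, adjusted p = 0.304) and rho = 0.429 (exact permutation p = 0.419, adjusted p = 0.511). This r was -0.38 without CTL replicate 2 and 0.98 without CTL replicate 1, and for *C1qb* and *C1qc* it went from 0.55 to -0.35 and to 0.94. The departure of *C1qc* was widest in CTL replicate 1 and not confined to it. In that mouse its log2 CPM was 1.23 below its mean while those of *C1qa* and *C1qb* were 1.13 and 0.51 above theirs. In CTL replicate 3 *C1qc* was 0.47 above its mean, with *C1qa* at -0.16 and *C1qb* at -0.25 from theirs.

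**Figure D3:**
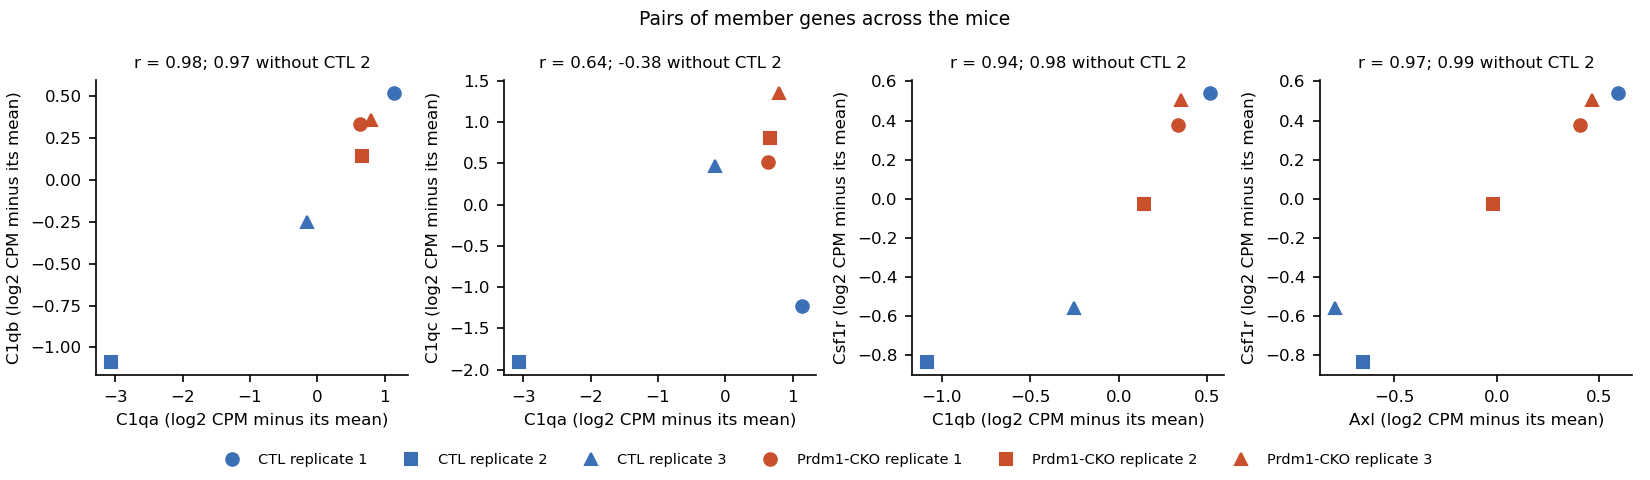
Log2 CPM of pairs of members, each minus its mean over the 6 mice (both axes), with 1 point per mouse. *C1qa* with *C1qb*, *C1qb* with *Csf1r* and *Axl* with *Csf1r* lie near a rising line, while CTL replicate 1 drops away in *C1qa* with *C1qc*.

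Set against *Csf1r* within each library, *Axl* varied little, from 136 to 181 counts per 1000 *Csf1r* counts, and *C1qb* from 74.9 to 111. *C1qc* ranged from 10.7 to 75.0 and *C1qa* from 8.90 to 70.8 on the same scale. *Mfge8* was at 29.8, 49.7 and 46.7 per 1000 *Csf1r* counts in CTL and 26.8, 22.9 and 28.7 in *Prdm1*-CKO mice, and the groups were apart by a narrow gap, 28.7 to 29.8. Over all other genes tested, 4.19% had every *Prdm1*-CKO mouse below every CTL mouse on this scale. *Mfge8*, 1 of the 7 members set against *Csf1r*, was singled out after its values were seen. The ratio shows unequal change and not which of the genes changed.

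Most macrophage markers were low in CTL replicate 2 like the chain genes, and their likeness to the mean of these rested largely on that mouse. Without it *C1qc* ran against *C1qa* and *C1qb* (r = -0.38 and -0.35), so this mean joins genes that parted. Likeness of the markers to each chain gene alone was not tested. Against the mean of the chain genes, in log2 CPM across 6 mice, r was over 0.9 for 6 of the 12 macrophage markers tested. *Adgre1* was at 0.978 and *Cd68* at 0.957, and these were 0.670 and 0.463 without CTL replicate 2. The median r of the markers went from 0.911 to 0.427 without that mouse. *Cd163*, a receptor of red pulp macrophages, was at -0.374, which turned to 0.134 without CTL replicate 2. Over all other genes 8.54% had r over 0.9. Without CTL replicate 2 the share was 1.30%, and 1 marker was over 0.9 against the mean of the chain genes. This was *Cd5l*, which encodes a protein secreted by macrophages, at 0.987 against 0.895 with all mice. In CTL replicate 1 *Cd5l* was, like *C1qc*, below its own mean over the mice, while the other markers tested were above theirs. *Cd5l* was at 16.9, 9.48 and 13.5 CPM in CTL and 22.3, 21.8 and 31.6 CPM in *Prdm1*-CKO mice, without overlap as in *C1qc*.

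**Figure D4:**
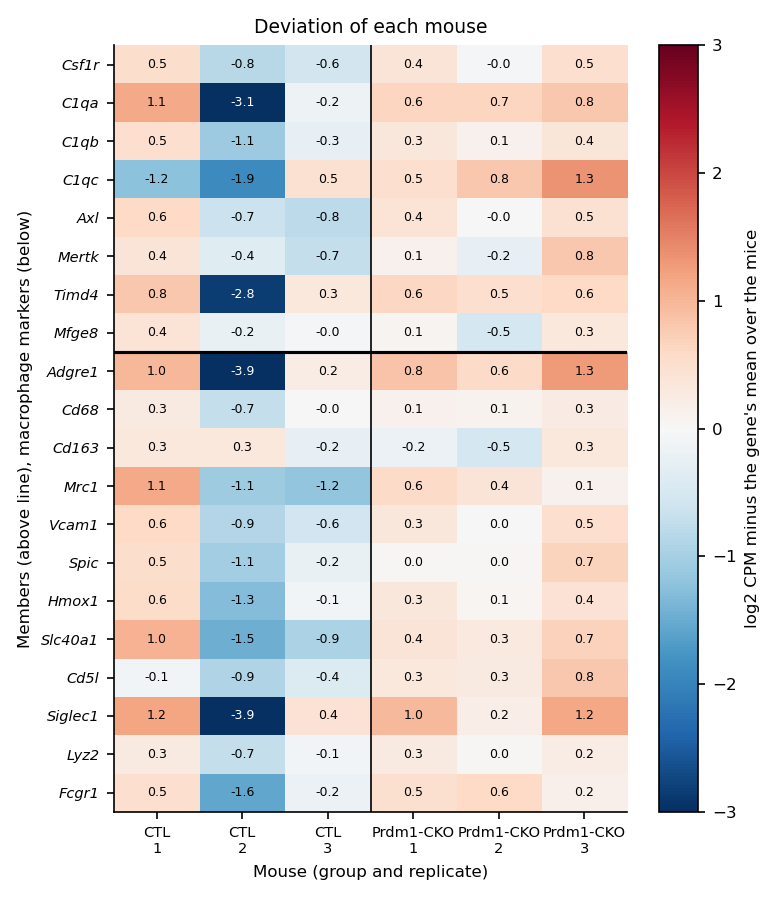
Log2 CPM of the members (above the line) and of the macrophage markers tested (below it), minus the mean of each gene over the mice, in each mouse; colours end at 3 and the printed numbers do not. CTL replicate 1 is above the mean in all members but *C1qc*, and CTL replicates 2 and 3 are below it in *Csf1r* and *Axl*.

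The 10 genes most like the mean of the chain genes by Pearson's r over the 6 mice were *Gcdh* (0.997), *Tmem11*, *Rasgrp3*, *Ctsh*, *Gm15530*, *Lsm6*, *4930515G01Rik*, *Fth1*, *Hpf1* and *B4galt4* (0.993). None is in a list used here. *Ctsh* encodes the lysosomal protease cathepsin H and was at 111, 43.2 and 94.2 CPM in CTL and 117, 118 and 137 CPM in *Prdm1*-CKO mice. *Fth1* encodes the ferritin heavy chain, which stores iron, and was at 855, 620 and 857 CPM against 921, 936 and 935 CPM. With CTL replicate 2 left out, *Gcdh*, at 0.981, ranked 18 among all genes, and the other 9 ranked lower.

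The partners of C1q in the classical pathway had few or no counts. The proteases that C1q activates are encoded by *C1ra*, with 0 to 20 counts per mouse, and *C1s1*, with 0 to 4 counts. Their substrates *C4b* and *C2* had few counts too, with 0 to 21 for *C2*, while *C4b* had 134 counts in CTL replicate 2 and at most 20 in any other mouse. *Serping1*, the C1 inhibitor gene, had 0 counts in all 6 mice. Downstream, *C3*, the central component, was at 57.0, 29.3 and 9.47 CPM in CTL and 56.5, 35.0 and 36.5 CPM in *Prdm1*-CKO mice, and the groups overlapped. *Cfp*, which encodes properdin of the alternative pathway, was at 98.9, 19.2 and 61.7 CPM against 71.6, 71.0 and 74.1 CPM, again with CTL replicate 1 highest and CTL replicate 2 lowest.

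Of 46 other complement genes, 12 had 0 counts in every mouse and 22 were tested, of which 0 were called at an adjusted p from edgeR or DESeq2 and 0 at an unadjusted p from edgeR. Their median log2 fold change was 0.21, with 17 above 0, and it was -0.01 without CTL replicate 2. Among the 22 tested, the groups separated in CPM in *Cr2* alone, where 4.56% of all genes had every *Prdm1*-CKO mouse above every CTL mouse. *Cr2* encodes a complement receptor of B cells and follicular dendritic cells. Its counts were 35, 19 and 1 in the CTL mice against 70, 26 and 74 in the *Prdm1*-CKO mice. The gap in CPM, between CTL replicate 1 and *Prdm1*-CKO replicate 2, was narrow. Below the filter, the CPM of *C1ra* was lower and that of *C4a* higher in every *Prdm1*-CKO mouse, with 0 to 20 and 0 to 12 counts per mouse. *Calr* and *C1qbp*, which encode proteins that bind C1q, were steady in comparison, with log2 fold changes of 0.24 (standard error 0.14) and 0.15 (standard error 0.15). *Vsig4*, the complement receptor of macrophages, is described above with the macrophage markers.

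The genes of the ligands that join *Axl* and *Mertk* to dead cells were unequal in level. For *Gas6* the CTL mice had 16, 0 and 0 counts, and the *Prdm1*-CKO mice 4, 0 and 13. *Pros1*, which encodes protein S, was at 15.9, 0 and 8.29 CPM in CTL and 17.3, 9.46 and 12.1 CPM in *Prdm1*-CKO mice, and was undetected in CTL replicate 2 like *Timd4* and *Tyro3*. Of the integrin chains that bind MFG-E8, *Itgav* ran from 39.9 to 95.8 CPM, *Itgb3* from 14.2 to 44.2 CPM and *Itgb5* from 0 in CTL replicate 2 to 16.6 CPM. CTL replicate 2 was the highest mouse for *Itgav*, the reverse of the chain genes, *Timd4* and *Csf1r*.

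Of 56 other dead-cell uptake genes, 47 were tested, of which 0 were called at an adjusted p. At an unadjusted p under 0.05 from edgeR 2 were higher, where 0.928% of all genes were. These were the scavenger receptor gene *Olr1* and *Sirpa*, the receptor for the CD47 signal that holds back engulfment. Both were named after their values were seen. *Olr1* was at 0.685, 0 and 0.296 CPM in CTL and 1.47, 4.07 and 2.19 CPM in *Prdm1*-CKO mice. Its CTL mice had 10, 0 and 2 counts, under the floor of 3 counts in CTL replicates 2 and 3. *Sirpa* was at 188, 96.3 and 89.2 CPM in CTL and 221, 166 and 316 CPM in *Prdm1*-CKO mice. *Cd47* itself ran from 414 to 494 CPM, with a log2 fold change of 0.10 (standard error 0.13). The median of the 47 genes was 0.18, with 33 above 0, and it was 0.06 without CTL replicate 2 and 0.34 without CTL replicate 1.

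Groups did not overlap in 4 uptake genes higher in *Prdm1*-CKO mice, which were *Cd300lf*, *Olr1*, *Cd14* and *Lgals3* (named, like *Cr2*, after their values were seen), against 4.56% of all genes, and in 1 that was lower, *Abca1*, against 3.86%. *Abca1*, the cholesterol exporter that phagocytes switch on after a meal of dead cells, was at 17.7, 23.6 and 12.4 CPM in CTL and 8.90, 12.0 and 11.4 CPM in *Prdm1*-CKO mice, with a log2 fold change of -0.74 (standard error 0.32). *Nr1h3*, the gene of the sterol sensor LXRα that controls it, was at 20.8, 14.0 and 19.4 CPM against 19.9, 16.1 and 32.0 CPM, and its groups overlapped. Of the other uptake receptors, *Trem2* was at 7.95, 0.237 and 0.888 CPM against 6.54, 5.29 and 4.52 CPM, and its signaling partner *Tyrobp* ran from 155 CPM in CTL replicate 2 to 360 CPM in CTL replicate 1. *Havcr2*, which encodes TIM-3, was at 8.17 CPM in CTL replicate 2 and between 32.1 and 46.7 CPM in the other mice. *Cd36*, a scavenger receptor, ran from 39.4 CPM in CTL replicate 2 to 140 CPM in CTL replicate 1, and *Stab1*, a receptor for phosphatidylserine, had at most 18 counts.

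Of 12 genes around CSF1R, 10 were tested, with 0 called at an adjusted p, and their median log2 fold change was 0.24, or 0.02 without CTL replicate 2. At an unadjusted p under 0.05 from edgeR 1 of them was higher, *Spi1*, where 0.928% of all genes were. The ligand gene *Csf1* was at 21.2, 27.2 and 10.4 CPM in CTL and 15.1, 12.3 and 17.0 CPM in *Prdm1*-CKO mice, and *Il34*, the gene of the alternative ligand, had 0 counts throughout. *Spi1*, which encodes PU.1, was at 42.7, 64.6 and 146 CPM in CTL and 177, 162 and 161 CPM in *Prdm1*-CKO mice. *Spi1* was the only gene of the 10 whose groups did not overlap, against 4.56% of all genes with every *Prdm1*-CKO mouse higher. Its log2 fold change was 0.99 (standard error 0.40), from 0.64 without CTL replicate 1 to 1.65 without CTL replicate 3, and CTL replicate 1 was its lowest mouse, unlike in *Csf1r*. Letters of its core site are the capitals in the upstream sequences of *C1qb* and *C1qc* above, as in 23.3% of all promoters. Whether PU.1 had a part in the levels of these genes was not tested. *Spic*, the factor of red pulp macrophages, was at 47.1, 15.8 and 28.3 CPM against 33.7, 33.6 and 52.5 CPM, with overlap.

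**Figure D5:**
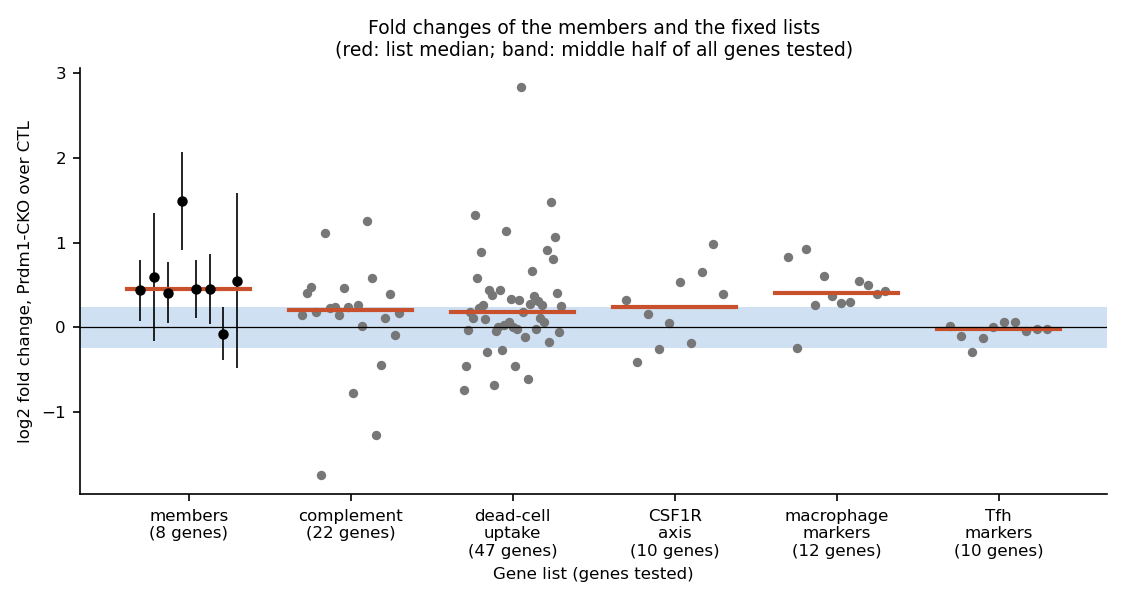
Log2 fold change of *Prdm1*-CKO over CTL (vertical axis, edgeR) for the members, with standard errors, and for the tested genes of each list, 1 point per gene, with list medians in red and the middle range of all genes tested, from the lower to the upper quartile, as a band. The medians are 0.45 for the members, 0.21, 0.18 and 0.24 for the complement, uptake and CSF1R lists, 0.41 for the macrophage markers and -0.02 for the Tfh markers.

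The median of the 12 macrophage markers tested was 0.41, near that of the members. At an unadjusted p under 0.05 from edgeR 1 of them was higher, where 0.928% of all genes were. This was *Cd5l*, with a log2 fold change of 0.92 (standard error 0.30). The remaining markers named by role had log2 fold changes of 0.83 for *Adgre1*, 0.26 for *Cd68*, 0.43 for *Vcam1*, 0.37 for *Hmox1*, 0.50 for *Slc40a1* and -0.24 for *Cd163*, and all of these groups overlapped. For the 10 Tfh markers the median was -0.02, and 1, *Cd4*, was lower at an unadjusted p from edgeR, where 1.42% of all genes were. Its groups did not overlap, and its log2 fold change was -0.29 (standard error 0.12).

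B cell, plasma cell and erythroid markers had medians above that of the members. The 9 B cell markers had a median log2 fold change of 0.79 with 9 above 0, the 5 plasma cell markers 0.60 with 5 above 0, and the 5 erythroid markers tested 1.29 with 5 above 0. CTL replicate 2 was the lowest mouse in the mean log2 CPM of each of these lists. For B cell markers it was at 1.46, against 2.77 to 3.94 in the other mice. For plasma cell markers it was at 2.42, against 4.56 to 5.33. Some erythroid genes had few counts, with 4 to 64 per mouse for *Hbb-bt* and 0 to 16 for *Klf1*. Medians of these lists with a mouse left out were not computed. At an unadjusted p under 0.05 from edgeR, 0.928% of all genes were higher. Of the plasma cell markers 1 was, *Jchain*, the gene of the antibody joining chain. Of the erythroid markers 3 were, the globin genes *Hba-a1*, *Hbb-bs* and *Hbb-bt*. These genes were named after their values were seen. Summed levels of B cell markers were 178, 107 and 122 CPM in CTL and 238, 152 and 217 CPM in *Prdm1*-CKO mice, those of plasma cell markers 644, 404 and 594 CPM against 645, 791 and 865 CPM, and those of erythroid markers 8.22, 8.29 and 17.6 CPM against 47.6, 12.7 and 36.5 CPM. The 8 dendritic cell markers tested had a median of 0.36, and the 9 monocyte and neutrophil markers tested 0.17, with *Ngp*, a neutrophil granule gene, higher at an unadjusted p. Dendritic cell markers summed to 151 to 239 CPM in CTL and 164 to 305 CPM in *Prdm1*-CKO mice, and monocyte and neutrophil markers to 317 to 399 CPM and 409 to 421 CPM. The 3 follicular dendritic and stromal and the 2 endothelial markers tested had medians of -0.03 and -0.01. The part that such cells had in the values of the members was not tested.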

How the data were processed

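The authors sequenced the Smart-seq2 libraries as paired reads of 25 bp and deposited raw counts per gene, with 1 library per mouse. For the counting the paper names featureCounts 1.4.6 and GENCODE mouse release 9. The deposited identifiers were not compared with that release. The submitters' processing notes name STAR 2.4.2a and GRCm38.p6. Strandedness, multiply aligned reads and fragment counting were not given in the sources used here. The members and the gene lists were chosen with earlier results of these data known.

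Counts were scaled by TMM, filtered with filterByExpr and tested in edgeR 4.0.16 (R 4.3.3) by the quasi-likelihood F test of 3 against 3 mice, with no covariate and Benjamini-Hochberg adjustment over 14555 genes. Levels are CPM, with a prior count of 2 on the log2 scale. Lengths are exon unions of a later GENCODE release on GRCm38, which held 53274 of the 53379 identifiers, 50604 with the same version. Correlations were tested over all orders of the 6 mice by exact permutation. P-values from edgeR set the difference between the groups against the spread between these mice, estimated with information shared across genes. Named genes are the members, genes listed by their role, list genes with an adjusted p under 0.05 (0 found), and the 10 genes most like the C1q chains. Of the genes listed by role, 1 is not reported here by itself. Any other gene was named after its values were seen. On simulated counts for this comparison (14134 genes), edgeR recovered 70.8% of 192 genes changed 4-fold, with 6 false calls. The simulation held no outlying library such as CTL replicate 2. Its 4-fold change was larger than that of any member with all mice, so it does not tell how often changes of the members' size would be found. Alternatives were DESeq2 1.42.0, its size factors, no filter, a minimum of 10 counts in all mice, a replicate block, limma 3.58.1 voom with sample weights, a prior count of 0.5, centring by group, and each mouse left out.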

Additional observations from a re-analysis of the deposited data

How the results depend on the processing

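With 3 mice a group, 1 library could decide a value. At an adjusted p under 0.05, 0 genes were higher and 0 lower in edgeR, and each mouse left out in turn kept these counts at 0. DESeq2's Wald test called 7 genes higher and 2 lower, and edgeR without a filter 1 higher, none of them a member or a gene of the complement, uptake or CSF1R lists. Genes higher and lower with an unadjusted p under 0.05 numbered 135 and 207 in edgeR, 264 and 417 in DESeq2, 426 and 510 without a filter, and from 58 to 580 and from 107 to 617 with each mouse left out. The cause of these changes was not tested.

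With each mouse left out, the median log2 fold change ran from 0.15 to 0.99 for the members, from -0.01 to 0.43 for complement (-0.0064 without CTL replicate 2), from 0.058 to 0.34 for uptake and from 0.02 to 0.46 for the CSF1R genes. Single genes changed direction in these fits, with *Timd4* from -0.026 to 1.29, *Mfge8* from -0.26 to 0.14, *C3* from -0.012 to 1.13, *Cfp* from -0.16 to 0.82, *Itgav* from -0.48 to 0.21, *Itgb3* from -0.31 to 0.33, *Cd36* from -0.077 to 0.87, *Nr1h3* from -0.0024 to 0.53, *Cxcr5* from -0.32 to 0.18, *Pdcd1* from -0.17 to 0.37 and *Cd3e* from -0.22 to 0.046. Voom with sample weights put *Cd3e* at 0.0049 and gave CTL replicate 2 the lowest weight, 0.330. The r of *C1qa* with *C1qc* ran from -0.38 to 0.98 and that of *C1qb* with *C1qc* from -0.35 to 0.94, and the latter was 0.29 with groups centred. The other 6 members kept their direction in every alternative run.

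Same-numbered mice had residual correlations of 0.159, 0.028 and 0.016, so the replicate numbers were not taken to pair the mice. With the replicate number as a block, 0 genes were called, 175 and 196 had an unadjusted p under 0.05 in the higher and lower direction, and the median of the members was 0.57, with *C1qa* at 1.23 and *C1qc* at 1.77.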
